A study of Arabidopsis thaliana with 4 samples.

Results

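Calmodulin-like (CML) genes CML37 to CML47 encode calcium sensors, and 10 of them were followed here by their gene identifiers, out of 32833 genes in the count table. They were CML37 (AT5G42380), CML38 (AT1G76650), CML39 (AT1G76640), CML40 (AT3G01830), CML41 (AT3G50770), CML42 (AT4G20780), CML43 (AT5G44460), CML45 (AT3G29000), CML46 (AT5G39670) and CML47 (AT3G47480). RNA came from Arabidopsis thaliana seedlings of ecotype Col0, 7 days old, grown with 16 h of light and 8 h of dark at 22°C. The cml39 group carried the genotype cml39 -/- and the wt group was wild type, with 2 libraries each and 4 in all; the allele and the number of seedlings per library are not given in the sources used here. The comparison asked how transcript levels differ between the mutant and its wild-type control. The RefSeq annotation lists CML39 as a synonym of both AT1G76640 and AT5G42380; here CML39 is AT1G76640 and CML37 is AT5G42380, and neither was lower in the libraries labelled cml39. Of the 10 names, RefSeq carries CML37, CML38, CML39, CML41, CML42 and CML43, while CML40, CML45, CML46 and CML47 follow the published numbering of the family.

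Calcium entering the cytosol is bound by EF-hand loops, short acidic loops in which a calcium ion is held by side chains, and binding changes the shape of the sensor so that it can act on other proteins. Unlike calmodulin, which is present in all cells, many CML genes are induced by wounding, pathogens, low oxygen or touch. CML37 and CML42 are known from defence against feeding insects, where they act in opposite directions on jasmonate signalling. CML38 belongs to the transcripts induced by low oxygen, CML41 acts in the closing of plasmodesmata during immune responses, and CML46 and CML47 are known as restraints on salicylate-dependent resistance. CML39 is named in the series title for its roles in seed development, germination and fruit development.

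The 10 genes held 3 pairs of close relatives, and since the results are given by pair, the pairs are shown first. Identity over aligned residues of the encoded proteins was 80.9% for CML42 and CML43, 72.4% for CML38 and CML39, and 63.8% for CML45 and CML46. The next closest were CML37 and CML38, at 51.4%. The encoded proteins ran from 146 residues (CML40) to 205 (CML41). EF-hand loops that match the standard PROSITE pattern numbered 3 in CML37, CML38, CML39, CML41, CML42 and CML43, 2 in CML45 and CML47, and 1 in CML40 and CML46. Coding bases of loops matched in both genes of a pair are given 5′ to 3′ from RefSeq TAIR10.1, because they show how alike these loops are. Only the first loop is printed for CML42 and CML43. Capitals mark bases that differ between the members of a pair. In the first loop of CML38 and CML39, 3 of 36 bases differed.
CML38, chr1:28767254-28767289, minus strand: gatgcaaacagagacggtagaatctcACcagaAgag
CML39, chr1:28765678-28765713, minus strand: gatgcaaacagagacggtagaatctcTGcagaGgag
In their second loop, 7 of 36 bases differed.
CML38, chr1:28767146-28767181, minus strand: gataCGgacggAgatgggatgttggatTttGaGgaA
CML39, chr1:28765570-28765605, minus strand: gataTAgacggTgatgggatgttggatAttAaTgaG
Their last loop differed at 1 of 36 bases.
CML38, chr1:28766930-28766965, minus strand: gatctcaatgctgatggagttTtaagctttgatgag
CML39, chr1:28765345-28765380, minus strand: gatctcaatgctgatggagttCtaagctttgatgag
CML42 and CML43 had 3 loops that matched in both, with 8 of 36 bases differing in the second and 5 of 36 in the third. In their first loop, shown here, 5 of 36 bases differed.
CML42, chr4:11133738-11133773, minus strand: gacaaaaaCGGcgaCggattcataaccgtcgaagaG
CML43, chr5:17917394-17917429, plus strand: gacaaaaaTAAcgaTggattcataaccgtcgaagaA
In the loop that matched in both CML45 and CML46, 7 of 36 bases differed.
CML45, chr3:11006193-11006228, plus strand: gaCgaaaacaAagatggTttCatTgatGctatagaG
CML46, chr5:15883702-15883737, plus strand: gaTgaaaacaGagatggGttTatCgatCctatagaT
The longest run of exonic bases shared without a mismatch was 34 for CML38 and CML39, 20 for CML42 and CML43 and 18 for CML45 and CML46. Read length is not given in the sources used here, so how many reads could have come from either gene of a pair was not tested.

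CML38 and CML39 are neighbours on the minus strand of chromosome 1. CML38 spans chr1:28766750-28768138 with at most 2 exons, CML39 spans chr1:28765254-28765866 with 1 exon, and 883 bases lie between them. CML42 (chr4:11133095-11134075, minus strand) and CML43 (chr5:17916993-17918001, plus strand) have 1 exon each, as do CML45 (chr3:11005638-11006514, plus strand) and CML46 (chr5:15883179-15884067, plus strand). CML37 (chr5:16942447-16943820, minus strand), CML41 (chr3:18873911-18874836, plus strand) and CML47 (chr3:17496085-17497164, minus strand) also have 1 exon each, and CML40 (chr3:296024-299263, plus strand) has up to 2.

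Libraries held 19331639 to 24101882 counts. Levels are given as CPM, counts relative to the library size after TMM scaling (trimmed mean of M values); a count of 0 allows a level of up to 0.113 to 0.164 CPM, taken as 3 counts per library. A gene was called when its adjusted p from edgeR's quasi-likelihood test fell below 0.05; 40.9% of 19834 tested genes were called, 19.3% higher and 21.6% lower in cml39. That split was 3822 higher and 4285 lower, and 2704 higher and 5403 lower with upper quartile scaling. Against that background, 5 of 9 tested CML37 to CML47 genes were higher and 2 were lower; CML37 had too few counts to be tested. In CPM, both cml39 libraries lay above both wt libraries for 7 of the 9, against 36% of tested genes, and below for 2, against 38%. CML39, CML40 and CML45 reached the count filter through the cml39 libraries alone, so a rise was the only change that could have been called for them, and the count is not support for a rise of the family. Marker genes of seedling tissues moved with the groups. Root markers were lower for 15 of 19 genes and higher for 0, and their summed level was 4333 to 4875 CPM in wt and 1108 to 1378 in cml39. Both cml39 libraries lay below both wt libraries for 16 of the 19 and above them for 1. Green tissue markers were higher for 4 of 11 and lower for 0, with sums of 57821 to 61204 CPM in wt and 76532 to 82312 in cml39. Their median log2 change was 0.16 (0.02 with upper quartile scaling), and 3 of the 11 had both cml39 libraries below both wt libraries. Seed and embryo markers summed to 3.86 and 5.02 CPM in wt, 26.0 in cml39 1 and 233 in cml39 2; the seed albumin genes 2S1 and 2S2 and the oleosin gene OLEO1 had 0 counts in every library but cml39 2. In bulk seedlings, fewer cells of a type and less RNA per cell cannot be told apart. The labels do not say whether libraries of a group came from separate cultures, so p-values describe the spread between these libraries, which may be technical.

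**Figure D1:**
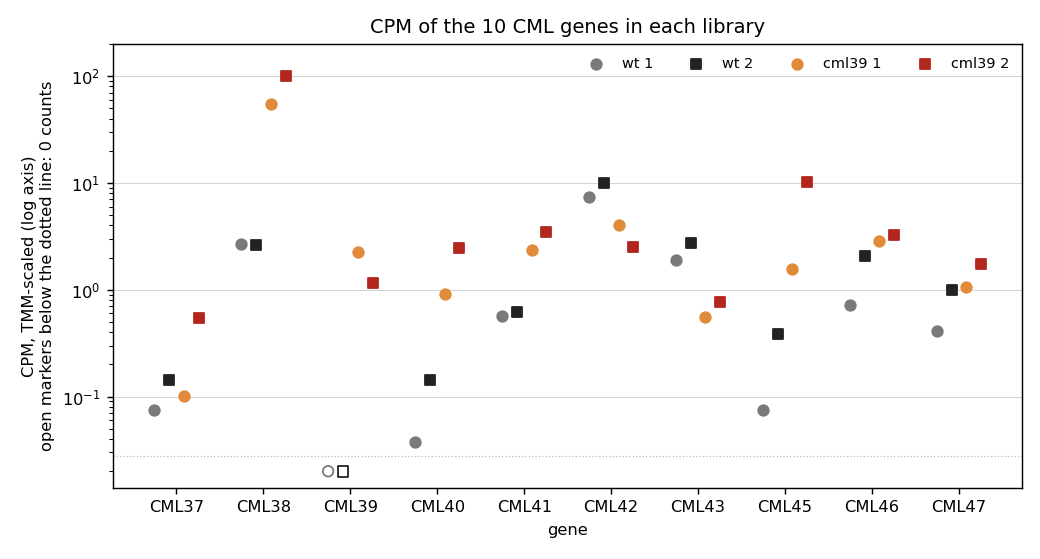
CPM of each gene (log axis) in wt 1, wt 2, cml39 1 and cml39 2, with open markers for 0 counts. CML38 stood at 2.70 and 2.63 CPM in wt and 55.0 and 101 in cml39, CML42 and CML43 were lower in both cml39 libraries, and CML45 differed most between cml39 1 and cml39 2.

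CML39 had counts in the libraries labelled cml39 and in neither wt library. Its counts were 0 in either wt library, 45 in cml39 1 and 21 in cml39 2. The groups did not overlap, and the direction goes against a loss of the transcript under the mutant label, so each direction below is that of the libraries so labelled. Against a floor of 3 counts over the wt group, CML39 was at least 27.4-fold higher (edgeR adjusted p = 0.00218, n = 2 per group). Leaving out wt 1 or wt 2 lowered that bound to 12.1-fold or 15.3-fold. It was 18.3-fold when cml39 1 was dropped and 36-fold when cml39 2 was dropped. Reads over the gene cannot tell an altered transcript from an intact one, since the table gives 1 count per gene. The level of CML39 in cml39 1 was above that in cml39 2, at 2.26 and 1.15 CPM.

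CML38, the low-oxygen gene next to it, had the highest level of the set in cml39. It had 72 counts in wt 1, 55 in wt 2, 1093 in cml39 1 and 1848 in cml39 2. Both cml39 libraries were far above both wt libraries. CML38 rose from 2.67 ± 0.05 CPM (SD, n = 2) to 78.0 ± 32.6, a log2 change of 4.87 ± 0.32 (SE; 95% interval 4.13 to 5.60; edgeR adjusted p = 7.92e-05). CML38 and CML39 differed in which cml39 library was higher: there were 4.12 CML39 counts per 100 CML38 counts in cml39 1 and 1.1 in cml39 2. The genes on either side of the pair differed by less and did not pass. AT1G76630, 211 bases from CML39, had a log2 difference of 0.24 ± 0.13 (edgeR adjusted p = 0.161), and AT1G76660, 620 bases from CML38, one of 0.40 ± 0.16 (edgeR adjusted p = 0.0867), which passed without cml39 2, at 0.62 (edgeR adjusted p = 0.00105), and with no low-count filter (edgeR adjusted p = 0.0446).

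The 250 bases before the starts of CML38 and CML39 are shown because these neighbours rose together, beside those of CML42 and CML43, which fell together. Capitals mark motifs searched on both strands: TTGAC, the core of the W-box bound by WRKY factors, and GAANNTTC, a minimal heat shock element.
CML38, chr1:28768139-28768388, minus strand: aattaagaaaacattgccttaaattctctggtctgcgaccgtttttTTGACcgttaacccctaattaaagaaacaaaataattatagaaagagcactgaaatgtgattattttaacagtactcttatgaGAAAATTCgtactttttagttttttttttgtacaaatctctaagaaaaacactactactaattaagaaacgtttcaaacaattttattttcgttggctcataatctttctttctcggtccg
CML39, chr1:28765867-28766116, minus strand: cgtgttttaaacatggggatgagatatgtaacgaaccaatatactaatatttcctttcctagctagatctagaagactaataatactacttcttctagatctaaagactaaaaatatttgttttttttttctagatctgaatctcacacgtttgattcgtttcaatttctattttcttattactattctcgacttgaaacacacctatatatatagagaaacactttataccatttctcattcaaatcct
CML42, chr4:11134076-11134325, minus strand: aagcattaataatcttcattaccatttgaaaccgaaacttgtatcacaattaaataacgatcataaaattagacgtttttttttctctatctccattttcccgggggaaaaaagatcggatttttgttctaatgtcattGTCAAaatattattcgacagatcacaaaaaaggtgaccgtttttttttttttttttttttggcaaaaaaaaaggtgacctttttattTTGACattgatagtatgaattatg
CML43, chr5:17916743-17916992, plus strand: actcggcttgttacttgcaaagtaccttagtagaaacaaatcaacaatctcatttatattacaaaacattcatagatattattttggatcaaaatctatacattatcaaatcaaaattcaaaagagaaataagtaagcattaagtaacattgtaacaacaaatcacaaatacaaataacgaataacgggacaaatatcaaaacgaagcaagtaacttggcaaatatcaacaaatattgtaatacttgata
TTGAC was in the window of CML38, CML40, CML42, CML45 and CML46, 5 of 10 genes, and in 44.9% of 27443 windows of the same length before protein-coding genes. GAANNTTC was in the windows of CML37, CML38, CML40 and CML46, 4 of 10, and in 9.55% of all windows. The windows of CML39 and CML43 held neither. CGCGT, the core of the rapid stress element that CAMTA factors bind, was in 0 of the 10 windows and 6.87% of all; CACGTG was in 0 of 10 and 6.49% of all, and GCCGCC in 0 of 10 and 1.87% of all. TTGAC was present before genes that rose and before CML42, which fell.

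CML42 and CML43, the pair most alike in sequence, were lower in cml39. CML42, a brake on jasmonate-dependent defence, had 195 counts in wt 1, 209 in wt 2, 81 in cml39 1 and 46 in cml39 2. CML42 fell from 8.65 ± 1.90 CPM (SD, n = 2) to 3.30 ± 1.10, a log2 change of -1.38 ± 0.29 (SE; 95% interval -2.06 to -0.70; edgeR adjusted p = 0.00769). CML43, described as a gene of root tips and of the hypersensitive response, had 50 and 58 counts in wt and 11 and 14 in cml39. CML43 fell from 2.32 ± 0.64 CPM to 0.660 ± 0.150, a log2 change of -1.81 ± 0.43 (SE; 95% interval -2.81 to -0.80; edgeR adjusted p = 0.0130). Neither gene's groups overlapped. Without wt 2 neither passed (CML42, -1.15, edgeR adjusted p = 0.0573; CML43, -1.51, edgeR adjusted p = 0.139), and without wt 1 CML43 was just short of the threshold at -2.07 (edgeR adjusted p = 0.0505). The same libraries had root markers with a median log2 change of -2.02; their part in the fall of CML42 and CML43 was not tested.

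CML45 and CML46 were both above wt in each cml39 library, to different degrees. CML45 had 2 counts in wt 1, 8 in wt 2, 31 in cml39 1 and 184 in cml39 2. Both cml39 libraries were above both wt libraries, and they differed widely from each other. CML45 had a log2 change of 4.72 ± 1.03 (SE; 95% interval 2.31 to 7.13; edgeR adjusted p = 0.00907), which was 2.84 without cml39 2 and 5.53 without cml39 1. It did not pass without wt 1 (3.90, edgeR adjusted p = 0.0530) or with limma-voom (adjusted p = 0.0689), and without wt 2, which leaves 2 counts in wt, the ratio of summed counts was 74.8 with a counting interval of 20.5 to 622. CML46, a restraint on salicylate-dependent resistance, had 19 and 43 counts in wt and 57 and 60 in cml39. Its log2 difference of 1.18 ± 0.48 (SE; 95% interval 0.06 to 2.30) did not pass (edgeR adjusted p = 0.0864). Without wt 1 the difference was 0.58 (edgeR adjusted p = 0.425). CML46 passed without wt 2 (2.09, edgeR adjusted p = 0.0263), without cml39 1 (edgeR adjusted p = 0.0488), with no low-count filter (edgeR adjusted p = 0.039) and with limma-voom (adjusted p = 0.0472), so its side of the threshold rests on the settings. The difference between the changes of CML45 and CML46 was not tested.

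CML47, which acts with CML46 in restraining salicylate-dependent resistance, had 11 counts in wt 1, 21 in wt 2, 21 in cml39 1 and 32 in cml39 2. In CPM the groups touched without overlapping, at 0.413 and 1.0 in wt and 1.06 and 1.75 in cml39. The log2 difference was 1.01 ± 0.56 (SE; 95% interval -0.28 to 2.30; edgeR adjusted p = 0.184), an interval that holds both no change and a rise as large as that of CML41. It was 1.74 without wt 2 (edgeR adjusted p = 0.158) and 0.48 without wt 1 (edgeR adjusted p = 0.684).

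CML41, the plasmodesmal sensor, had 15 and 13 counts in wt and 47 and 63 in cml39. Replicates were close in wt, at 0.592 ± 0.042 CPM (SD, n = 2). They were further apart in cml39, at 2.36 and 3.45 CPM (2.91 ± 0.77). CML41 rose by 2.29 ± 0.40 on the log2 scale (SE; 95% interval 1.35 to 3.23; edgeR adjusted p = 0.00360), and it passed with each library left out. CML40, for which no role is given here, had 1 and 3 counts in wt and 18 and 45 in cml39. CML40 rose by 4.21 ± 0.84 on the log2 scale (SE; 95% interval 2.26 to 6.16; edgeR adjusted p = 0.00599). That size rests on 4 wt counts: the ratio of summed counts was 19.6 with a counting interval of 7.30 to 74.3, and 11.5 (3.76 to 57.3) without wt 1, where it did not pass (edgeR adjusted p = 0.0599). Without wt 2 the ratio was 43.8 (7.59 to 1758) and without cml39 2 it was 10.8 (3.56 to 43.9).

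CML40 and CML46 each overlap 2 genes on the opposite strand in RefSeq, and the strand setting of the counting is not given in the sources used here. The partners of CML40 had 0 counts in all libraries (AT3G01055) and 19, 11, 9 and 2 counts in wt 1, wt 2, cml39 1 and cml39 2 (AT3G01840). Counts of AT3G01840 were therefore lower in the libraries in which those of CML40 were higher. Those of CML46 had at most 1 count (AT5G05995) and 14, 11, 10 and 11 counts (AT5G39680).

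CML37, which favours jasmonate-dependent defence, was near the limit of detection. It had 2 counts in wt 1, 3 in wt 2, 2 in cml39 1 and 10 in cml39 2. Its groups overlapped, and the ratio of summed counts, 2.99, had a counting interval of 0.981 to 10.8, so no difference was resolved over the 4 libraries. The ratio was 0.961 (0.0915 to 5.87) without cml39 2 and 5.22 (1.62 to 19.4) without cml39 1, which rests on the 10 counts of cml39 2. It was 4.17 (0.929 to 38.4) without wt 2 and 2.19 (0.592 to 12.1) without wt 1.

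**Figure D2:**
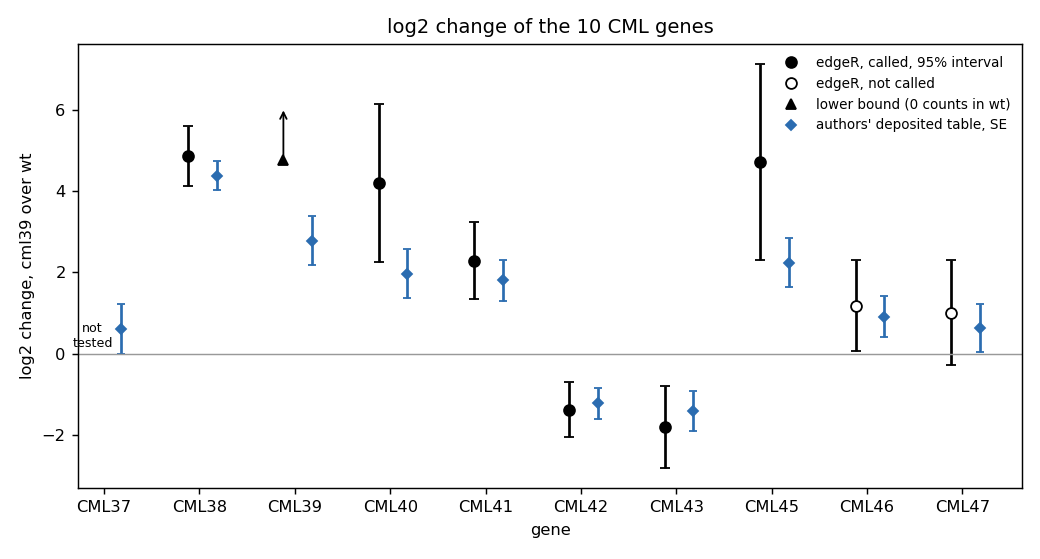
Log2 change of cml39 over wt with its 95% interval in the edgeR fit (black; open where not called; triangle with arrow for the lower bound of CML39) beside the authors' deposited value with its SE (blue). Both put CML38 to CML41 and CML45 above 0 and CML42 and CML43 below 0, and intervals are widest for CML40 and CML45, which had 4 and 10 counts in wt. Whether the authors' values were shrunk towards 0 is not given, so sizes are not compared.

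The authors' deposited table, which comes from a DESeq2 fit, gave the same calls for the 9 genes tested here; CML37, not tested here, was not called there. Of 20717 genes there with an adjusted p, 16% were called, 7.23% higher and 8.76% lower. In the authors' deposited table the log2 changes were 4.38 ± 0.36 for CML38 (SE, adjusted p = 1.24e-30), 2.78 ± 0.60 for CML39, 2.24 ± 0.60 for CML45, 1.97 ± 0.61 for CML40 and 1.8 ± 0.51 for CML41. The authors' deposited table gave -1.22 ± 0.38 for CML42 (adjusted p = 0.0141) and -1.41 ± 0.49 for CML43 (adjusted p = 0.0303). A DESeq2 1.42.0 fit to these 4 libraries gave 4.87 for CML38, 4.69 for CML45, 4.28 for CML40 and 2.3 for CML41. It gave -1.38 for CML42 and -1.81 for CML43. Whether the deposited log2 changes were shrunk towards 0 is not given in the sources used here, so their sizes are not compared with those of the other fits. The values for CML37, CML46 and CML47 in the authors' deposited table were 0.61, 0.91 and 0.64, with adjusted p of 0.569, 0.223 and 0.532. Both sources draw on the same libraries, at least in part, so the match is not independent support. The mean normalised count of CML37 in the authors' deposited table was 10.4, against 4.58 over these 4 libraries scaled by size factors, and that of CML38 was 807 against 856.

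Summed over the 10 genes, the level was 13.8 CPM in wt 1, 19.8 in wt 2, 70.7 in cml39 1 and 127 in cml39 2. CML38 made up 19.6% and 13.3% of the summed counts in wt and 77.7% and 79.6% in cml39. With CML38 left out, the sums were 11.1 and 17.1 CPM in wt and 15.7 and 26.0 in cml39, and the groups overlapped. The higher total in cml39 was thus that of CML38, while rises of CML39, CML40, CML41 and CML45 were accompanied by falls of CML42 and CML43.

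The order of levels, which was compared per kilobase of exon, differed between groups. In wt, CML42 was first at 8.82 ± 1.93 CPM per kb (SD, n = 2). CML38 (2.68 ± 0.05), CML43 (2.30 ± 0.63), CML46 (1.56 ± 1.07), CML47 (0.656 ± 0.387) and CML41 (0.639 ± 0.045) followed, and none of these neighbours in the order was separated from the next by more than the range of its libraries. CML45 (0.261 ± 0.248), CML37 (0.0795 ± 0.0352) and CML40 (0.0694 ± 0.0575) stood lower and overlapped one by one, and CML39 was at 0. In cml39, CML38 was first at 78.6 ± 32.8 CPM per kb, apart from all others. CML45 (6.63 ± 6.86), CML46 (3.46 ± 0.33), CML42 (3.36 ± 1.12), CML41 (3.14 ± 0.83) and CML39 (2.78 ± 1.29) came next, each with a range that overlapped that of its neighbour. CML47 (1.3 ± 0.46), CML40 (1.29 ± 0.85) and CML43 (0.654 ± 0.149) were lower, and CML37 was last at 0.236 ± 0.230. CML42 thus went from place 1 to place 4, and CML43 from place 3 to place 9. Per kilobase of coding sequence CML42 was at place 3 in cml39 (5.72 CPM per coding kb, with CML46 at 5.0), and CML40, at 3.82, came before CML39, at 3.56.

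**Figure D3:**
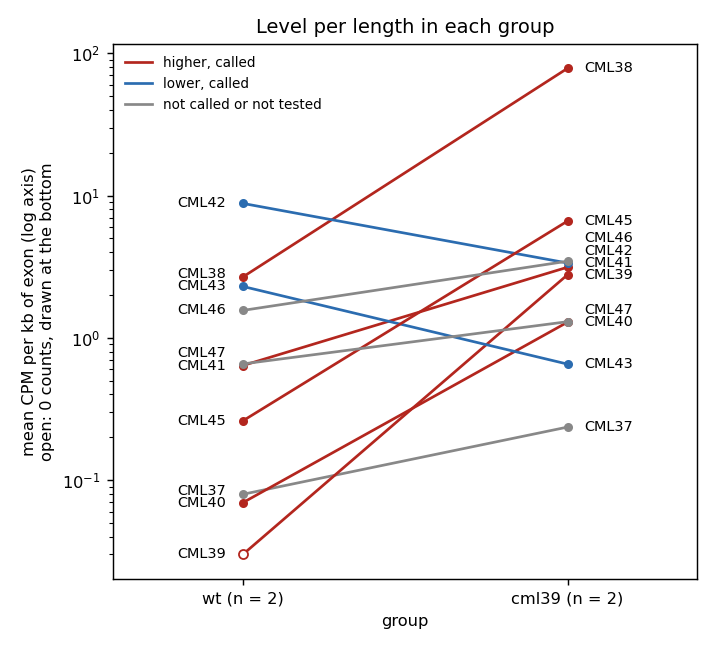
Mean CPM per kilobase of exon (log axis) of each gene in wt and in cml39, n = 2 libraries each, with lines joining the same gene. CML38 rose to 78.6 CPM per kb while CML42 fell from 8.82 to 3.36 and CML43 from 2.30 to 0.654; CML39, at 0 counts in wt, is drawn at the bottom.

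Libraries of the same group differed more for several of these genes than for most tested genes. The percentiles below were taken over tested genes at all count levels, and counting error is larger at low counts. Between cml39 2 and cml39 1 the CPM ratio was 6.46 for CML45, 5.44 for CML37 and 2.72 for CML40, all above the 95th percentile of tested genes (1.86). CML38, at 1.84, lay just within it, and CML39, at 0.508, lay below the 5th percentile (0.592). For CML45 the counts of 31 and 184 had exact Poisson intervals of 21.1 to 44.0 and 158 to 213. For CML40, 18 and 45 counts had intervals of 10.7 to 28.4 and 32.8 to 60.2. The intervals of CML37, 0.242 to 7.22 for 2 counts and 4.8 to 18.4 for 10, overlapped. Between wt 2 and wt 1, 6 of the 9 genes with a ratio were above the 95th percentile (1.41). Among them were CML45 (5.10), CML40 (3.83), CML46 (2.89) and CML47 (2.43), at 1 to 43 counts per library. In wt the Poisson intervals of CML45, CML40 and CML47 overlapped, and those of CML46 (11.4 to 29.7 and 31.1 to 57.9) did not. The higher of the cml39 libraries for CML45, CML37 and CML40 was cml39 2, the library with 233 CPM of seed and embryo markers against 26.0 in cml39 1; their part in these ratios was not tested. Without cml39 2 the log2 change was 2.84 for CML45 and 3.34 for CML40, against 4.72 and 4.21 over all 4 libraries. It was 4.37 for CML38, -1.07 for CML42 and -2.04 for CML43. That fit has 1 cml39 library, so only sizes are given. CML40 and CML45 reached the count filter through cml39 alone, so a fall could not have been called for them.

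**Figure D4:**
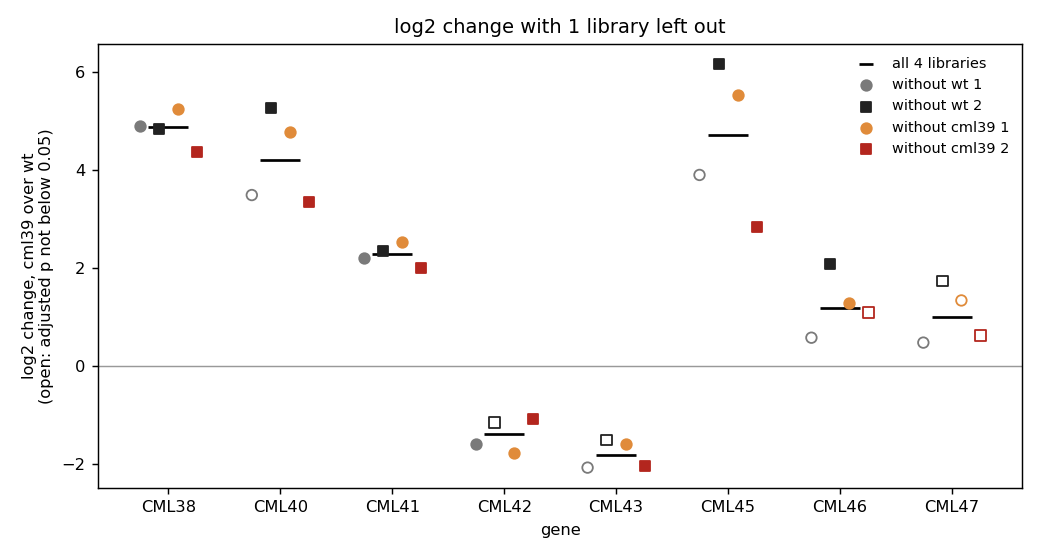
Log2 change of the tested genes other than CML39 with each library left out in turn (coloured points; open where the adjusted p was not below 0.05) beside the value from all 4 libraries (bar). CML38 and CML41 passed each time, CML45 ranged from 2.84 to 6.16, and CML42 and CML43 stayed below 0 but did not pass without wt 2; without wt 2, CML40 and CML45 rest on 1 and 2 wt counts.

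The rest of the family was described beside these 10. Of 47 other calmodulin and CML genes 32 were tested, of which 11 were higher and 5 lower in cml39, and 16 were not called. The shares were 34.4% higher and 15.6% lower, beside 19.3% and 21.6% over all tested genes. Their median log2 change was 0.15, against -0.0052 for all tested genes; upper quartile scaling moved the median of all genes to -0.153 and that of the other family members to 0.00, and without cml39 1 the latter was -0.09. CML24, the touch gene TCH2, rose by 1.63 ± 0.11 on the log2 scale (SE, n = 2; edgeR adjusted p = 9.03e-05), from 20.0 ± 0.5 CPM (SD) to 62.1 ± 2.8. CML35 rose by 1.29 ± 0.10 and CML16 by 1.44 ± 0.23, while CML19 fell by 1.47 on that scale (-1.47 ± 0.16). CML44, the gene whose number lies within the range but which was not among the 10, rose by 1.73 ± 0.39 (edgeR adjusted p = 0.0106), named after its values were seen. Near-identical calmodulin copies may share reads, and how reads that fit more than 1 gene were counted is not given in the sources used here.

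**Figure D5:**
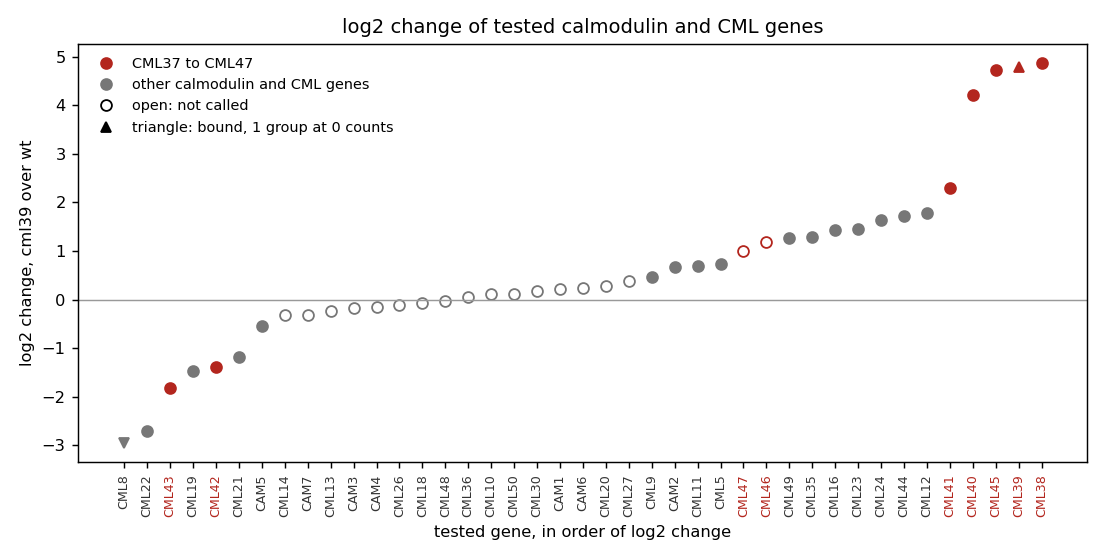
Log2 change of cml39 over wt for each tested calmodulin and CML gene in rising order, with CML37 to CML47 in red, others in grey, open markers where not called and triangles for bounds where 1 group had 0 counts. CML41, CML40, CML45, CML39 and CML38 lie from 2.29 to 4.87, of which CML39, CML40 and CML45 were tested through their cml39 counts alone, and CML43 and CML42 among the falls at -1.81 and -1.38.

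Genes of the responses in which these sensors are known were counted from lists. Over all tested genes, 19.3% were higher and 21.6% lower. Rapid touch, wound and stress genes rose for 12 of 13 tested and fell for 0, with a median log2 change of 2.1 (1.44 without cml39 2). TCH4, a cell wall enzyme induced by touch, rose by 2.76 ± 0.12 on the log2 scale (SE), CAF1A, a deadenylase, by 2.65 ± 0.24, and the ethylene response factors ERF6 and ERF1A by 2.04 ± 0.20 and 1.54 ± 0.17. CAMTA genes, whose calmodulin-binding factors act in rapid stress transcription, were higher for 3 of 6 with a median of 0.45: CAMTA4 by 0.48 ± 0.13, CAMTA5 by 0.52 ± 0.15 and CAMTA2 by 0.43 ± 0.13. None of these 3 passed with upper quartile scaling (edgeR adjusted p = 0.0657, 0.0772 and 0.126) or without wt 1 (edgeR adjusted p = 0.126, 0.175 and 0.27). CAMTA4 and CAMTA2 also missed the threshold without wt 2 (edgeR adjusted p = 0.0786 and 0.0542), as did CAMTA5 and CAMTA2 without cml39 1 (edgeR adjusted p = 0.0758 and 0.0815). CAMTA2 was also lost with the replicate number as a block (edgeR adjusted p = 0.0665).

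The low-oxygen genes, among which CML38 is usually counted, went both ways. Of 14 tested 6 were higher and 3 lower, or 42.9% and 21.4%, beside 19.3% and 21.6% over all tested genes. Their median was 0.10 and turned to -0.05 with upper quartile scaling and to -0.04 without cml39 1. ADH1, alcohol dehydrogenase, rose by 1.62 ± 0.25 and ALAAT1, alanine aminotransferase, by 1.3 ± 0.14. PDC1, pyruvate decarboxylase, changed by -2.21 ± 0.37, and ACO1, an ethylene-forming oxidase, was 15.5-fold lower from 3 counts in cml39, with a counting interval of 5.05 to 77.4. The log2 change of CML38, 4.87, stood beside these values in the same libraries.

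Jasmonate genes, the setting of CML37 and CML42, were higher for 3 of 18 and lower for 6, with a median of -0.06. That was 16.7% higher and 33.3% lower, beside 19.3% and 21.6% over all tested genes. AOS, allene oxide synthase, changed by -1.98 ± 0.13 (edgeR adjusted p = 8.38e-05), LOX2, a lipoxygenase of the chloroplast, by -2.32 ± 0.29, and VSP1, a storage protein induced by jasmonate, by -4.85 ± 0.62 (-7.57 without cml39 1 and -4.01 without cml39 2), while LOX4 rose by 2.43 ± 0.29. Salicylate and immune genes, the setting of CML46 and CML47, were higher for 4 of 15 and lower for 4. These shares, 26.7% each, stood beside 19.3% higher and 21.6% lower over all tested genes. The median of this list was 0.27 and turned to -0.18 without cml39 1. CBP60A, a calmodulin-binding protein that restrains immunity, rose by 1.35 ± 0.17 and FRK1, a receptor-like kinase induced by bacterial flagellin, by 2.78 ± 0.45 (2.15 without wt 1 and 3.75 without wt 2). EDS5, the chloroplast exporter of the salicylate pathway, changed by -2.08 ± 0.36, and PR5, a pathogenesis-related protein, was 24.6-fold lower from 3 counts in cml39, with a counting interval of 8.16 to 121. Among tissue markers the lowest p-values were those of the root genes TIP2;2 (-3.24 ± 0.12), IRT1 (-3.67 ± 0.17), PHO1 (-2.02 ± 0.13) and PHT1;1 (-1.70 ± 0.12). CAB1 (0.86 ± 0.14), RCA (0.51 ± 0.11), LHCA4 (0.50 ± 0.13) and FAMA (0.62 ± 0.18) led the green list and PAP85 (4.42 ± 0.29) was the called gene of the seed list. RCA did not pass without cml39 2 or with the replicate number as a block (edgeR adjusted p = 0.0503), LHCA4 did not pass without wt 1, without cml39 1, with upper quartile scaling or with that block (edgeR adjusted p = 0.0621), and FAMA did not pass without wt 1 or with upper quartile scaling.

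The genes nearest to CML38 and CML39 in their profile over the 4 libraries were found by the Euclidean distance of centred log2 CPM, among genes with a mean of at least 1 CPM. For CML38 these were PAP85, a vicilin-like seed protein (distance 0.659), UGT73C1, a glucosyltransferase (0.715), and AT1G77640 (0.744). PAP85 had 26, 31, 416 and 568 counts in wt 1, wt 2, cml39 1 and cml39 2, so it shared with CML38 a low level in wt and a higher level in cml39 2 than in cml39 1. For CML39 they were XTH18, a xyloglucan endotransglucosylase (0.566), AT2G32210 (0.683) and AT1G75945 (0.689). CML39 had 0 counts in wt, so its wt log2 values are set by the prior count. Its distances and its nearest genes therefore depend on that setting and are not a measured likeness in wt. XTH18 had 308 and 384 counts in wt and 5650 and 3126 in cml39, with the same order of the cml39 libraries as CML39. A profile over 4 libraries separates few patterns, and likeness here is a description.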

How the data were processed

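RNA of whole seedlings was sequenced from strand-specific mRNA libraries, per the labels' protocols. The authors deposited raw read counts per gene for the 4 libraries, and a table of their own comparison. In that deposited table the signal is a mean normalised count, log2 fold changes (cml39 over wt) come with their standard errors, the score is the Wald statistic, and a p-value and an adjusted p-value follow. Per the submitters' processing notes, CASAVA 1.8, FastQC, STAR 2.5.2b and DESeq2 1.14.1 were used with TAIR10; the role of each and the strand setting are not given in the sources used here.

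The counts were fitted with edgeR 4.0.16 under R 4.3.3 (filterByExpr, trimmed mean of M values, quasi-likelihood F test, two-sided, Benjamini-Hochberg adjustment over 19834 genes). The SE is the absolute log2 change over the square root of F. A group at 0 was set to 3 counts over the group, and ratios resting on few counts have exact binomial 95% intervals; molecules carried no identifiers, so these cover counting error only. Alternatives used DESeq2 1.42.0, limma 3.58.1, other scalings and filters, a replicate block and each library left out. Steps were tested on simulated data in which few genes changed, all with a mean above 1 CPM. That test did not cover a share of called genes as large as here, or genes at low counts such as CML37, CML39 and CML40.

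Members and lists were chosen with earlier results of these data known. The text names all members, the called genes with the lowest p in each list (at most 4), those beside CML38 and CML39, and the 3 nearest profiles of each. Names, lengths and sequences are from RefSeq TAIR10.1, which holds 32548 of the gene identifiers; the deposited files carry no coordinates. Protein features were computed from translated RefSeq coding sequences.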

Additional observations from a re-analysis of the deposited data

How the results depend on the processing

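Of the log2 changes of the 9 tested CML37 to CML47 genes under the alternatives, 97 kept their direction and their side of the threshold. Of the rest, 6 lost the call, 4 gained it and 0 reversed, and the causes were not tested. CML39, at 0 counts in wt, could not reverse. CML39, CML40 and CML45 reached the count filter through cml39 alone, so the tally is not support for their rise. A fit with 1 library left out has 1 library in a group, so its spread comes from the other group. With each library left out, 3 to 6 of these genes were called higher and 0 to 2 lower. Without wt 1 those were CML38, CML39 and CML41 higher and CML42 lower. Over all genes the calls then ranged from 3899 (without wt 1) to 8657, with 1868 to 4105 higher and 2031 to 4552 lower. Calls ranged from 8 to 19 in the other calmodulin and CML genes, 0 to 4 in the CAMTA list, 5 to 8 in the low-oxygen list, 5 to 10 in the salicylate list and 1 to 12 in the seed list. With upper quartile scaling 0 CAMTA genes were called and the split of all genes was 2704 higher and 5403 lower; with no low-count filter 10 seed genes were called, since more genes of that list were tested. CML40 was not tested at a filter of 1 CPM in 2 libraries.

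The replicate numbers of the titles have no stated meaning, and deviations of same-numbered libraries correlated across genes at r = -0.118. With the number as a replicate block 6744 genes were called, 3142 higher and 3602 lower, with 5 of the CML genes higher and 2 lower and 2 green tissue genes called. With the crossed block, added after seeing the data, 8696 genes were called, again with 5 CML genes higher and 2 lower. Depth limits CML37 (17 counts in all) and the sizes for CML40, CML45 and CML39, whose wt groups held 4, 10 and 0 counts.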
